A study of Saccharomyces cerevisiae with 14 samples.

Results

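The 42 genes described here encode subunits of the chromatin remodeling complexes, histone acetyltransferases and histone methyltransferases of budding yeast, enzymes that act on the same nucleosomes as the histone deacetylase Rpd3. They were chosen by name and not by a measured value, though with earlier results of these data known. They are 42 of 6598 genes in the deposited table. They comprise 9 genes of SWI/SNF, 10 of RSC, 6 further remodeling ATPases, 8 of SAGA, 6 of other acetyltransferase complexes and 3 methyltransferases, and 17 of the 42 encode a catalytic subunit. All 42 had a value in every condition, and all 42 passed the filter on low values, which asked for 1 FPKM or more in any condition.

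RNA came from strain W303, either wild type or carrying a deletion of RPD3 (called the mutant here), with no other allele or agent named. Each genotype was harvested in log phase at an OD600 between 0.4 and 0.6, at the diauxic shift (DS), 2 hours after the glucose ran out, and as quiescent (Q) cells, the Percoll-purified fraction of cultures 7 days old. Strand-specific, rRNA-depleted libraries with ERCC spike-in RNA were made from 2 isolates per condition; each wild-type log isolate was sequenced with both 0.2 and 1 equivalents of spike, giving 14 libraries in all. The table gives 1 value per condition, so no replicate error and no test stand behind any value or difference below, and the read depth is unknown.

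Remodelers of the Snf2 family use ATP to slide, evict or exchange nucleosomes. SWI/SNF and RSC are related complexes, the first needed at a subset of inducible genes and the second abundant and essential for growth. Acetyltransferases such as Gcn5 in SAGA and Esa1 in NuA4 place marks of the kind that Rpd3 removes, and Set2 places the H3K36 methylation that directs one form of the Rpd3 complex to transcribed genes. Quiescent yeast cells are known for compact chromatin and low transcription.

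Levels are FPKM, a read abundance per length of gene, which the authors scaled with the spike-ins to RNA per cell. Changes are differences of log2(FPKM + 1), and genes past 2-fold on that scale were counted. RPD3 itself was at 70.8, 37.7 and 2.35 FPKM in wild-type log, DS and Q cells; in the mutant it had no value in log and was at 0.941 and 0.0279 FPKM in DS and Q cells. The 5 markers of fermenting growth summed to 14842, 416 and 47.1 FPKM in wild-type log, DS and Q cells, and the 6 diauxic markers to 809, 20127 and 299.7 FPKM. The 6 stationary phase markers summed to 59.0, 17512 and 5835 FPKM; SPG1 (798 and 1487 FPKM) and SNZ1 (97.5 and 133 FPKM) were higher in wild-type Q than in DS cells, and the other 4, SPG4, GRE1, SIP18 and HSP26, were lower. In the mutant these 3 sums were 13712, 2152 and 861 FPKM, 810.4, 27771 and 1617 FPKM, and 158, 3098 and 5631 FPKM. MATa genes summed to 1923 FPKM in wild-type and 361 FPKM in mutant log cells and MATalpha genes to 12.8 and 8.83 FPKM. The median gene was at 38.0, 20.1 and 1.37 FPKM in wild-type log, DS and Q cells and at 50.2, 33.9 and 19.0 FPKM in the mutant, so counts past 2-fold are given on the per-cell scale and again with every column centred on its median gene. Changes of single genes and classes are on the per-cell scale unless called centred. Percentiles, taken among the genes with a value in a condition that passed the filter on low values, and ratios of genes within a condition, do not depend on the per-cell scale. In these bulk samples fewer cells with a transcript and less RNA per cell cannot be told apart.

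In growing wild-type cells the chromatin genes were of middling abundance. Their median was 33.2 FPKM and their median percentile 45.1, with quartiles at 24.9 and 46.0 FPKM. TAF14, whose product is shared by SWI/SNF, INO80, NuA3, TFIID and TFIIF, was highest at 119 FPKM. RSC6 and RSC8, which encode RSC subunits, followed at 84.0 and 82.6 FPKM, and FUN30, which encodes a remodeler of silent chromatin and DNA ends, stood at 75.8 FPKM. SNF5, a core subunit of SWI/SNF, was lowest at 10.4 FPKM, followed by SWI1 of the same complex (17.2 FPKM) and the H3K56 acetyltransferase gene RTT109 (17.4 FPKM). SAGA genes lay between 22.2 and 44.0 FPKM and the 3 methyltransferase genes between 26.7 and 36.9 FPKM. In sum the 42 genes made up 0.120% of all FPKM in wild-type log cells.

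The catalytic genes are given here in the order wild-type log, DS and Q, then mutant log, DS and Q. SNF2, the ATPase of SWI/SNF, was at 32.8, 23.1, 3.68, 42.8, 26.3 and 23.6 FPKM. STH1, the ATPase of RSC, was at 65.5, 19.9, 3.08, 65.2, 30.7 and 24.99 FPKM. STH1 was thus the more abundant of the pair in log cells of both genotypes, and SNF2 the more abundant in wild-type DS and Q cells. ISW1, a nucleosome spacing ATPase, was at 64.9, 14.3, 0.809, 70.3, 31.3 and 13.7 FPKM. Its relative ISW2 was at 42.1, 15.2, 2.38, 38.9, 18.8 and 12.4 FPKM. CHD1, another spacing remodeler, was at 51.1, 19.4, 1.64, 56.8, 37.1 and 14.5 FPKM. All of these were lowest in wild-type Q cells and severalfold higher in mutant Q cells. INO80, which moves nucleosomes and acts on H2A.Z, was at 47.8, 23.3, 7.98, 69.4, 28.5 and 21.3 FPKM. SWR1, which deposits H2A.Z, was at 46.1, 20.1, 3.67, 46.1, 21.3 and 17.0 FPKM. FUN30 was at 75.8, 9.06, 1.51, 91.7, 39.9 and 32.5 FPKM. INO80 had the highest wild-type Q level of the 8 remodeling ATPase genes, and FUN30 the highest mutant Q level.

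Among the acetyltransferases GCN5 of SAGA was at 33.5, 13.7, 0.667, 42.4, 23.3 and 15.2 FPKM. ESA1, the catalytic subunit of NuA4, was at 35.3, 29.1, 8.06, 37.3, 36.5 and 26.8 FPKM. The pair was level in wild-type log cells, and ESA1 was far higher in wild-type Q cells. SAS2, which acetylates H4K16, was at 19.6, 8.32, 0.917, 36.6, 22.4 and 14.5 FPKM. SAS3, the acetyltransferase of NuA3, was at 19.5, 5.54, 1.87, 23.5, 11.6 and 9.36 FPKM. HAT1, which acetylates newly made H4, was at 36.7, 7.90, 0.407, 21.2, 9.36 and 10.9 FPKM. On the per-cell scale HAT1 was the one acetyltransferase gene lower in mutant than in wild-type log cells. RTT109 was at 17.4, 4.51, 0.0993, 19.5, 9.53 and 5.97 FPKM. Of the methyltransferases, SET1 (H3K4) was at 31.0, 11.4, 1.73, 46.5, 32.2 and 17.2 FPKM. SET2 (H3K36) was at 36.9, 7.28, 0.685, 42.8, 17.0 and 11.8 FPKM. On the per-cell scale both were higher in the mutant at each harvest, as was DOT1 (H3K79), at 26.7, 5.09, 0.107, 39.2, 15.9 and 9.85 FPKM. Centred, SET2 in log (-0.18) and SET1 in Q cells (-0.47) were below wild type, and DOT1 was above it at each harvest.

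The structural and targeting subunits are given as ranges over each complex, its catalytic gene included, in the same order of conditions. SWI/SNF genes spanned 10.4 to 119, 7.74 to 43.4, 0.588 to 5.61, 10.4 to 125, 10.3 to 47.2 and 8.15 to 29.7 FPKM. RSC genes spanned 23.1 to 84.0, 8.15 to 27.8, 0.296 to 3.93, 18.2 to 115, 11.5 to 44.5 and 9.21 to 28.6 FPKM. SAGA genes spanned 22.2 to 44.0, 6.98 to 14.7, 0.395 to 1.94, 28.2 to 43.2, 10.8 to 23.3 and 9.45 to 19.1 FPKM. For each of these complexes the whole range in mutant Q cells lay above the whole range in wild-type Q cells. Of 6419 genes, 94.5% were higher by 2-fold or more in mutant than in wild-type Q cells. The ranges of the other acetyltransferase genes overlapped, with ESA1 at 8.06 FPKM in wild-type and RTT109 at 5.97 FPKM in mutant Q cells.

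**Figure D1:**
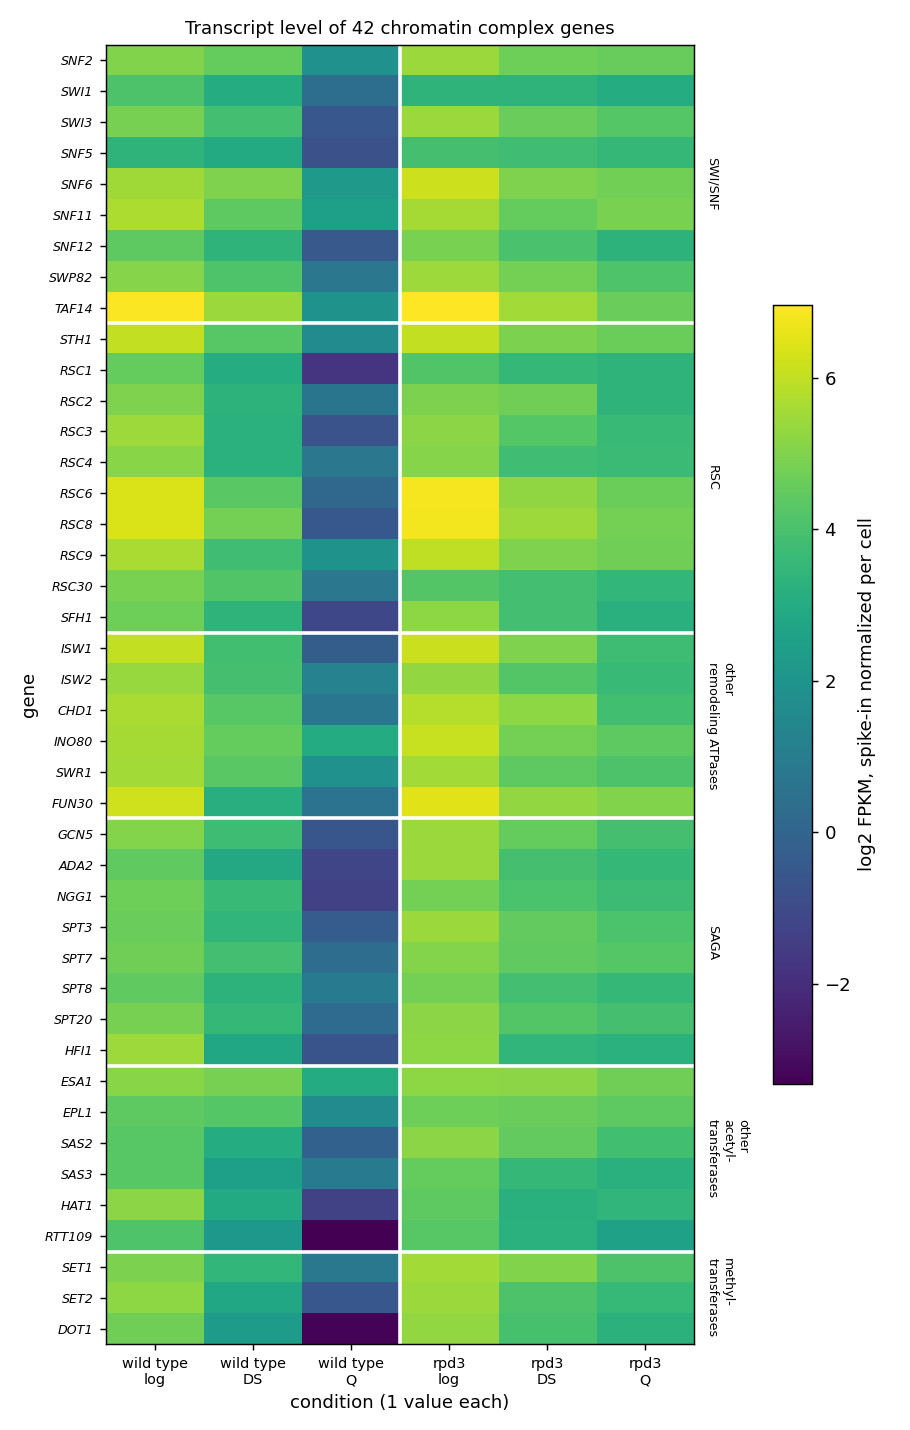
Heat map of log2 FPKM (colour, per-cell scale) for the 42 genes in rows, grouped by complex or class, in the 6 conditions in columns, 1 value each. In wild-type Q cells the genes lie between 0.0993 and 8.06 FPKM and in mutant Q cells between 5.97 and 32.5 FPKM.

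At the diauxic shift all 42 genes were below their wild-type log level, as were 5033 of 6519 genes. Of the 42, 31 were down by 2-fold or more, against 44.2% of 6519 genes, and 0 were up by that much, against 9.91%. Their median change was -1.31 and that of all genes -0.85, with 7 of 42 above the median gene. After centring, 8 were down by 2-fold or more and 0 up, against 22.0% and 20.2% of all genes. Below zero were 35 of the 42, against 3255 of 6519 genes. So the share of the 42 that was down past 2-fold stood above that of all genes on the per-cell scale and not after centring.

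FUN30 had the widest decrease, from 75.8 FPKM in log to 9.06 in DS cells (log2 change -2.93), and went from percentile 70.2 to 23.8. HFI1, which encodes the Ada1 scaffold of SAGA, went from 44.0 to 6.98 FPKM (-2.49), and SET2 from 36.9 to 7.28 FPKM (-2.19). EPL1 and ESA1, both of the NuA4 core, were nearest to their log level: EPL1 was at 21.4 and 19.0 FPKM (-0.16) and ESA1 at 35.3 and 29.1 FPKM (-0.27). SNF5 followed at 10.4 and 7.74 FPKM (-0.38). Centred, these 3 were above their log level, at 0.72, 0.63 and 0.46, and FUN30, HFI1 and SET2 were at -2.09, -1.67 and -1.36.

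By complex, 2 of 9 SWI/SNF genes (TAF14 and SNF11) were down by 2-fold or more, with a median of -0.94. In RSC it was 9 of 10, with a median of -1.62; RSC30, a zinc cluster subunit, was the exception (29.6 and 18.1 FPKM). All 6 further ATPase genes were past 2-fold, as were 7 of 8 SAGA genes, all but SPT7 (26.6 and 14.7 FPKM). Of the other acetyltransferase genes 4 of 6 were past it, and all 3 methyltransferase genes, whose median of -2.19 was the lowest. Centred medians were -0.062 for SWI/SNF, -0.75 for RSC and -1.36 for the methyltransferases.

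**Figure D2:**
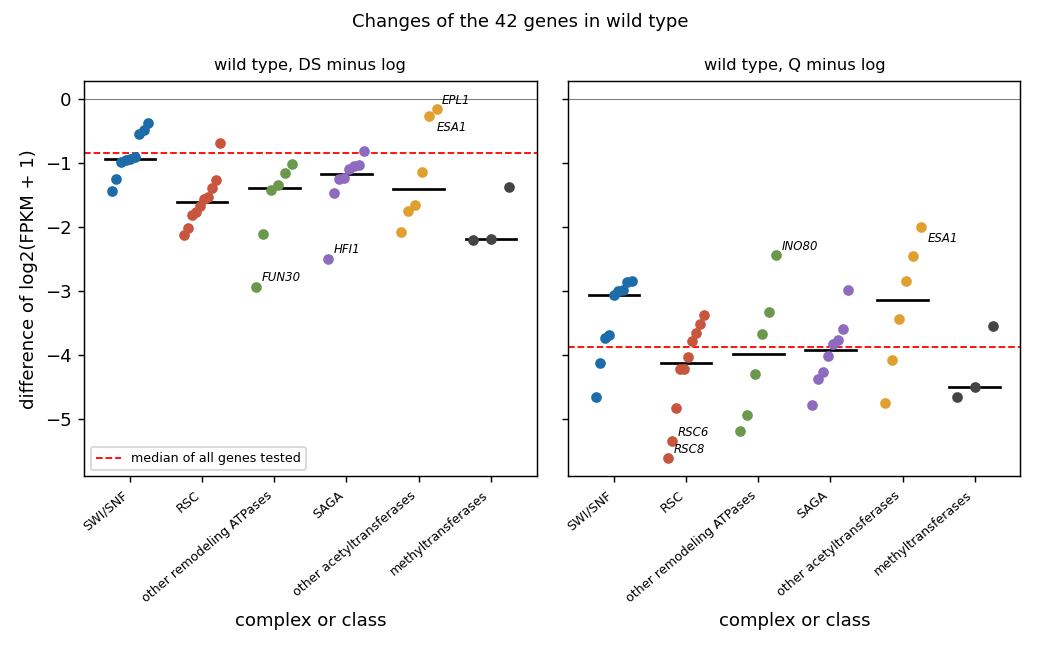
Difference of log2(FPKM + 1) between wild-type DS and log cells (left) and between Q and log cells (right) for the 42 genes by complex or class; each point is 1 gene, black bars are class medians and the dashed line is the median of all genes tested (-0.85 and -3.87). At DS 7 genes lie above the dashed line, EPL1 and ESA1 highest, and in Q cells 23 do.

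In wild-type Q cells all 42 genes were down by 2-fold or more from log, where 93.2% of 6425 genes were, and 0 were up, against 1.84%. Their median change of -3.77 was near the -3.87 of all genes. In sum the 42 genes stood at 4.91% of their wild-type log level, and all genes at 3.99%. After centring, 11 were up and 10 down by 2-fold or more, against 28.7% and 33.3%. The highest gene was 11.5 times the lowest in log cells and 81.2 times in Q cells. In Q cells 18 of 42 were below 1 FPKM, or 42.9%, against 42.1% of all genes with a value; such low levels are the least certain here.

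ESA1 was highest in Q cells, at 8.06 FPKM or 22.9% of its log level (-2.001). INO80 was at 7.98 FPKM or 16.7% (-2.44) and EPL1 at 3.11 FPKM or 14.5% (-2.44). SNF11 and SNF6, small subunits of SWI/SNF, stood at 5.61 and 4.62 FPKM. With every column centred, ESA1, INO80 and EPL1 were above their log level, by 2.63, 2.19 and 1.96. RSC8 had the widest decrease (82.6 to 0.711 FPKM, -5.61), then RSC6 (84.0 to 1.10 FPKM, -5.34) and ISW1 (64.9 to 0.809 FPKM, -5.19). By share of the log level DOT1 was lowest at 0.402%, then RTT109 at 0.570% and RSC8 at 0.861%; the added 1 FPKM makes the log2 changes of such low genes smaller than these shares imply.

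Class medians from log to Q ran from -4.49 for the methyltransferases to -3.06 for SWI/SNF, with RSC at -4.12, SAGA at -3.92, the further ATPases at -3.99 and the other acetyltransferases at -3.13. Centred, SWI/SNF was at 0.61 and RSC at -0.28.

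In percentiles, 24 of the 42 stood higher in wild-type Q than in log cells and 18 lower. Of 6425 genes, 48.5% stood higher. A gain of 20 points or more was seen for 9 genes, against 22.7% of all genes, and a loss of that size for 8, against 24.9%. EPL1 went from percentile 30.2 to 69.7 and ESA1 from 47.2 to 86.4. SAS3 went from 27.5 to 57.3, INO80 from 57.2 to 86.2, and SNF2 from 44.7 to 73.6. SPT8, of the TBP-binding module of SAGA, and SWI1, SNF6 and SNF11 of SWI/SNF were the others that gained. RSC8 went from 72.3 to 33.1, DOT1 from 37.6 to 4.47 and ISW1 from 65.9 to 36.3; RSC6, HAT1, RSC3, HFI1 and RTT109 also lost 20 points or more. At DS none gained and 10 lost that much, against 15.1% and 16.0% of all genes.

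**Figure D3:**
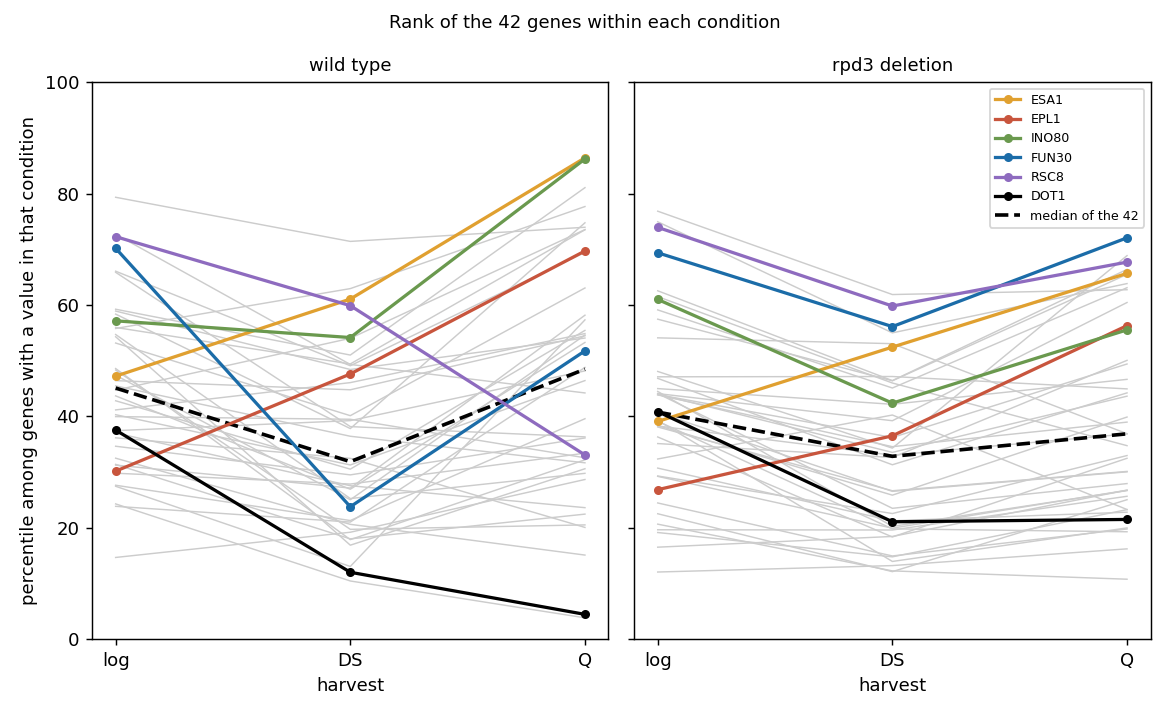
Percentile of each of the 42 genes among genes that passed the filter and had a value in the same condition (vertical axis) at log, DS and Q in wild type (left) and in the mutant (right); grey lines are single genes, coloured lines are selected genes and the dashed line is the median of the 42. The median is 45.1, 31.9 and 48.5 in wild type and 40.8, 32.8 and 36.9 in the mutant.

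From DS to Q in wild type all 42 genes were down by 2-fold or more, against 94.6% of 6420 genes, and 0 up, against 0.171%. Their median was -2.46, that of all genes -2.90, and 33 of 42 lay above the median gene. After centring, 17 were up and 3 down by 2-fold or more, against 23.5% and 26.2%, with a median of 0.44. SAS3 was nearest to its DS level (5.54 to 1.87 FPKM, -1.19), then INO80 (23.3 to 7.98 FPKM, -1.43) and RSC9 of RSC (14.2 to 3.93 FPKM, -1.62). RSC8 was farthest (27.8 to 0.711 FPKM, -4.07), then RSC6 (20.1 to 1.10 FPKM, -3.33) and NGG1, the Ada3 adaptor of SAGA (12.1 to 0.395 FPKM, -3.23). For FUN30 this step was -2.01 on the per-cell scale, smaller than its step from log to DS. Centred it was 1.24, and its percentile went from 23.8 in DS to 51.8 in Q cells. Without the added 1 FPKM, DOT1 (-5.57) and RTT109 (-5.51) fell farther from DS to Q than RSC8 (-5.29).

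Comparisons of genotypes reuse the wild-type values above. In log phase 0 of the 42 genes were up and 0 down by 2-fold or more in the mutant, against 10.2% and 3.38% of 6479 genes. Their median difference was 0.27 (-0.12 centred), that of all genes 0.25. After centring, 3 (HAT1, SWI1 and RSC30) were down and 0 up by that much, against 6.08% and 4.0%. The highest were ADA2, an adaptor of Gcn5 (22.2 and 43.2 FPKM, 0.93), SAS2 (19.6 and 36.6 FPKM, 0.86) and SPT3 of SAGA (24.6 and 42.7 FPKM, 0.77). The lowest were HAT1 (36.7 and 21.2 FPKM, -0.76), SWI1 (17.2 and 10.4 FPKM, -0.67) and RSC30 (29.6 and 18.7 FPKM, -0.63). RSC genes had a median of -0.021 and SWI/SNF genes of 0.37.

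At DS 8 of 42 were up by 2-fold or more in the mutant, against 31.3% of 6393 genes, and 0 down, against 3.61%. The median was 0.61 (-0.097 centred), that of all genes 0.64. After centring, 1 (FUN30) was up and 1 (RSC30) down, against 10.7% and 9.6%. FUN30 stood at 9.06 and 39.9 FPKM in wild-type and mutant DS cells (2.03). All 3 methyltransferase genes were among the 8, with DOT1 at 5.09 and 15.9 FPKM (1.47), SET1 at 11.4 and 32.2 FPKM (1.42) and SET2 at 7.28 and 17.0 FPKM (1.12). The others were RSC2 (10.1 and 27.0 FPKM), SAS2, RSC9 and ISW1. RSC30 alone of the 42 was lower in the mutant (18.1 and 14.7 FPKM, -0.28), and SNF6 (0.020) and SWR1 (0.082) were nearest to their wild-type level on the per-cell scale and below it when centred, at -0.71 and -0.64.

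In Q cells all 42 genes were up by 2-fold or more in the mutant, against 94.5% of 6419 genes, and 0 down, against 0.343%. The median was 2.72, that of all genes 2.81. The 42 genes summed to 80.2 FPKM in wild-type and 695 FPKM in mutant Q cells. After centring, 5 were up and 14 down, against 22.2% and 26.9%, so the direction of single genes depends on the per-cell scale. RSC8 had the widest gap (0.711 and 28.6 FPKM, 4.11), then FUN30 (1.51 and 32.5 FPKM, 3.74) and RSC6 (1.10 and 25.5 FPKM, 3.66). As plain ratios DOT1 was at 91.7 and RTT109 at 60.1 times wild type, both from the lowest wild-type levels. INO80 had the narrowest gap (7.98 and 21.3 FPKM, 1.31), then ESA1 (8.06 and 26.8 FPKM, 1.62) and SAS3 (1.87 and 9.36 FPKM, 1.85); centred, these 3 were below wild type, at -2.35, -2.04 and -1.42. SAGA had the highest class median (3.12) and the further ATPases the lowest (2.27). Centred, SAGA was again highest (0.33), and SWI/SNF (-1.06) was just below the further ATPases (-1.01).

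**Figure D4:**
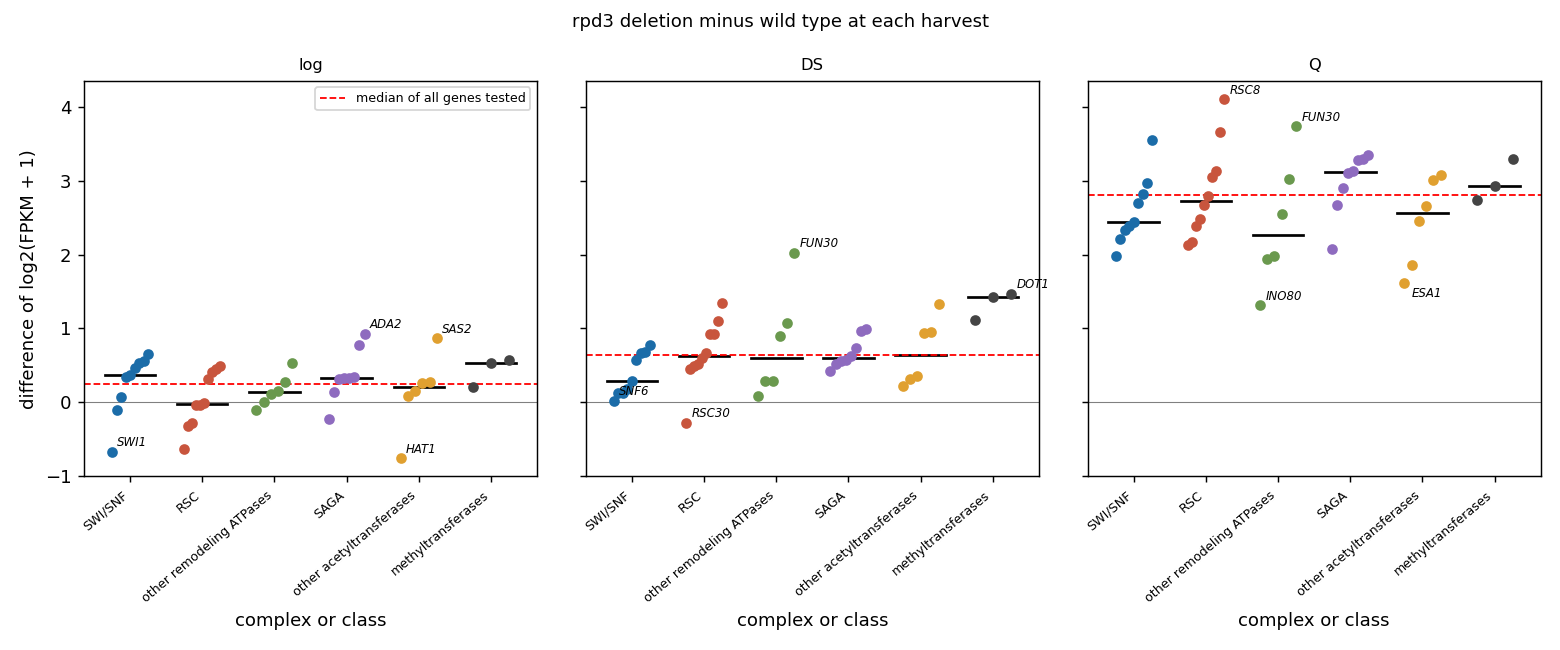
Difference of log2(FPKM + 1), mutant minus wild type, for the 42 genes by complex or class at log, DS and Q; points are single genes, black bars class medians and the dashed line the median of all genes tested (0.25, 0.64 and 2.81). FUN30 stands above the rest at DS (2.03), and in Q cells the genes lie between 1.31 and 4.11.

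Within the mutant, 18 of 42 genes were down by 2-fold or more from log to DS, against 28.6% of 6362 genes, and 0 up, against 7.54%; the medians were -0.95 and -0.52. After centring, 1 (HFI1) was down and 0 up, against 13.0% and 14.1%. HFI1 had the widest decrease (37.5 to 10.8 FPKM, -1.70), then RSC6 (115 to 38.8 FPKM, -1.54) and ADA2 (43.2 to 15.2 FPKM, -1.45). SWI1 (-0.016), ESA1 (-0.031) and EPL1 (-0.086) were nearest to their mutant log level, and centred they stood above it, at 0.50, 0.52 and 0.46.

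From log to Q in the mutant 32 of 42 were down by 2-fold or more, against 64.9% of 6396 genes, and 0 up, against 4.36%, with medians of -1.36 and -1.39. After centring, 0 were down and 1 (EPL1) up, against 19.4% and 16.3%. EPL1 kept 83.0% of its mutant log level (26.0 to 21.6 FPKM, -0.26), SWI1 78.3% (-0.32) and SNF5 74.1% (-0.40); centred, the 3 were at 1.09, 0.96 and 0.91. TAF14 had the widest decrease (125 to 24.8 FPKM, -2.29), then ISW1 (70.3 to 13.7 FPKM, -2.27) and RSC6 (115 to 25.5 FPKM, -2.13).

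From DS to Q in the mutant 3 of 42 were down by 2-fold or more, or 7.14%, against 40.6% of 6304 genes, and 0 up, against 2.68%. The median was -0.38 (0.40 centred), that of all genes -0.81, and 37 of 42 lay above the median gene. The 3 were RSC2 (27.0 to 10.4 FPKM, -1.30), CHD1 (37.1 to 14.5 FPKM, -1.30) and ISW1 (31.3 to 13.7 FPKM, -1.13). SNF11 (23.1 and 29.7 FPKM, 0.35) and HAT1 (9.36 and 10.9 FPKM, 0.20) were the 2 genes above their DS level, and RSC4 (-0.087, or 0.70 centred) was just below it on the per-cell scale. After centring, 0 were down and 1 (SNF11) up by 2-fold or more, against 16.1% and 8.98%. In sum the 42 genes made up 0.128% of all FPKM in mutant DS and 0.228% in mutant Q cells, next to 0.106% and 0.147% in wild type.

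SWI/SNF and RSC hold related core subunits, and for all 4 such pairs the SWI/SNF gene stood higher relative to the RSC gene in Q than in log cells. In wild-type log, DS and Q cells the ratio of SNF2 to STH1 was 0.5003, 1.16 and 1.19, and in the mutant 0.656, 0.857 and 0.943. SWI3 to RSC8 was 0.347, 0.535 and 0.981 in wild type and 0.388, 0.545 and 0.661 in the mutant. SNF5 to SFH1 was 0.395, 0.750 and 1.24 in wild type and 0.413, 0.935 and 1.24 in the mutant. SNF12 to RSC6 was 0.251, 0.518 and 0.656 in wild type and 0.256, 0.410 and 0.400 in the mutant. The log to Q direction was thus the same in both genotypes for each of these pairs. SWI3, RSC8, SNF5, SFH1 and SNF12 had less than 1 FPKM in wild-type Q cells, so the Q ratios there of 3 of the 4 pairs rest on low values.

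Of 5 other pairs given here in every condition, 4 moved in the same direction from log to Q in both genotypes. RSC1 to RSC2 was lower in Q than in log in wild type and higher in the mutant. INO80 to SWR1 and ESA1 to EPL1 also moved in opposite directions, up in wild type and down in the mutant. From log to Q, INO80 to SWR1 went from 1.04 to 2.17 in wild type and from 1.503 to 1.26 in the mutant. ESA1 to EPL1 went from 1.65 to 2.59 in wild type and from 1.44 to 1.24 in the mutant. The rest of the 16 pairs computed moved in the same direction in both genotypes. ISW1 to ISW2 was 1.54, 0.943 and 0.340 in wild-type and 1.805, 1.67 and 1.11 in mutant cells. RSC3 to RSC30, zinc cluster subunits of RSC, was 1.51, 0.524 and 0.362 in wild type and 1.95, 1.28 and 1.11 in the mutant. Both ratios ended below 1 in wild-type Q cells and above 1 in mutant Q cells. RSC1 to RSC2, alternative bromodomain subunits, was 0.728, 0.807 and 0.186 in wild type and 0.588, 0.425 and 0.999 in the mutant. ESA1 to GCN5 was 1.05, 2.13 and 12.1 in wild type and 0.881, 1.57 and 1.76 in the mutant. SET1 to DOT1 was 1.16, 2.23 and 16.1 in wild type and 1.19, 2.03 and 1.75 in the mutant. ISW1, RSC3, RSC1, GCN5 and DOT1 were all below 1 FPKM in wild-type Q cells, so those Q ratios also rest on low values.

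**Figure D5:**
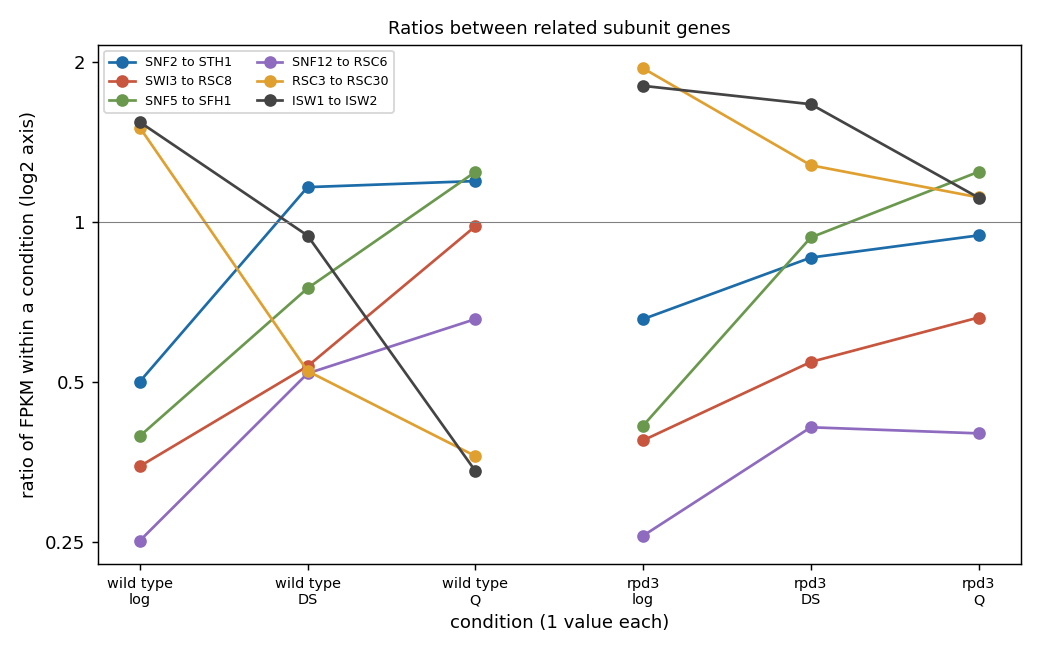
Ratio of FPKM between related genes within a condition (vertical axis, log2 spacing) in the 6 conditions, 1 value each, with lines joining the harvests of a genotype. The SWI/SNF to RSC ratios are higher in Q than in log cells in both genotypes, and ISW1 to ISW2 ends at 0.340 in wild-type and 1.11 in mutant Q cells.

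The other subunits of these complexes and enzymes linked to them were counted as 78 partner genes. From wild-type log to DS 43 of 78 were down by 2-fold or more, or 55.1% against 44.2% of all genes, and 0 up, against 9.91%, with a median of -1.14. All 7 partners of SWI/SNF and RSC were among them, and 3 of 10 of SWR1. After centring, 13 of the 78 were down and 4 up by 2-fold or more, against 22.0% and 20.2% of all genes. SWD3 of COMPASS, the Set1 complex (54.0 and 5.55 FPKM, -3.07), and ARP9, an actin-related subunit of SWI/SNF and RSC (73.8 and 9.66 FPKM, -2.81), were lowest. YNG1 of NuA3 (21.4 and 43.1 FPKM, 0.98) and EAF3, a chromodomain protein of NuA4 and of the Rpd3 complex (70.0 and 126 FPKM, 0.84), were highest. In wild-type Q against log cells all 78 were down by 2-fold or more, against 93.2% of all genes (medians -3.89 and -3.87), from TAF9 (136 and 1.29 FPKM, -5.90) and SWD3 (54.0 and 0.142 FPKM, -5.59) to IES2 of INO80 (15.3 and 3.50 FPKM, -1.86) and LGE1 (22.2 and 6.04 FPKM, -1.72), which works in H2B ubiquitination. After centring, 16 of the 78 were down and 23 up by that much, against 33.3% and 28.7% of all genes.

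In mutant against wild-type log cells 7 of 78 partners were up by 2-fold or more and 0 down (median 0.28), or 8.97% up against 10.2% of all genes and none down against 3.38%. Of the 7, 4 belonged to the 14 acetyltransferase partners. After centring, 0 of the 78 were up and 0 down by 2-fold or more, against 4.0% and 6.08% of all genes. The histone chaperone gene ASF1 (18.6 and 46.4 FPKM, 1.27) and SWC5 of SWR1 (14.3 and 33.7 FPKM, 1.18) were highest, and SUS1 of SAGA (56.7 and 37.7 FPKM, -0.58) and IOC3 of an Isw1 complex (42.3 and 29.4 FPKM, -0.51) lowest. At DS 17 were up by 2-fold or more, or 21.8% against 31.3% of all genes, and 0 down, against 3.61% (median 0.63). SWD3 (5.55 and 28.4 FPKM, 2.16) and SWC7 (4.93 and 22.7 FPKM, 2.00) were highest. GIS1 (34.3 and 21.9 FPKM, -0.63) and IES6 (39.5 and 31.2 FPKM, -0.33) were lowest. After centring, 2 were up and 2 down by 2-fold or more, against 10.7% and 9.6% of all genes. In Q cells all 78 were up, against 94.5% of all genes (medians 2.77 and 2.81). After centring, 13 were up and 28 down by 2-fold or more, against 22.2% and 26.9% of all genes. VPS75, a chaperone that works with Rtt109 (0.903 and 50.4 FPKM, 4.75), and SAS4, the partner of Sas2 (0.594 and 34.7 FPKM, 4.48), had the widest gaps, and RTF1 (3.85 and 9.46 FPKM, 1.11) and IES2 (3.50 and 10.4 FPKM, 1.35) the narrowest.

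The 4 histone demethylase genes JHD1, JHD2, RPH1 and GIS1 had the highest median of the 8 partner groups from log to Q in wild type (-2.26) and in the mutant (-0.25). From mutant log to Q cells JHD2, an H3K4 demethylase gene (5.77 and 8.33 FPKM, 0.46), and GIS1 (24.8 and 22.7 FPKM, -0.12) were the 2 highest of all partners. After centring, 3 of the 4 were up by 2-fold or more in wild-type Q against log cells, against 28.7% of all genes.

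In the R64 reference RSC2 overlaps YLR358C on the opposite strand by 514 bases and INO80 overlaps YGL149W by 2. The libraries keep strand, but the strand setting of the counting was not given, so reads of these pairs may not be separated.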

How the data were processed

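RNA-seq of 14 yeast libraries was deposited as a single table with 1 column per condition. Its values are log2 FPKM, which the authors normalized with spike-ins, per the labels and the design text. The submitters' processing notes name CASAVA, Cufflinks 2.2.1, Cuffdiff, SAMtools and TopHat2 with no order. Genome build, annotation and the way isolates and spike amounts were combined: not given in the sources used here. An error in a column's scale would shift every gene of that column alike. The log base was worked out by summing FPKM times kilobases of gene, which over 5924 names matched to RefSeq R64 gave 1288200 in wild-type log with base 2 and 31055500 with base e.

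Of 6602 rows, 4 of 2 repeated names were dropped. In mutant DS, a stretch of 108 values near the end of the column, of which 107 equal the start of mutant Q, was dropped after the data were seen; no gene of the list lies there. Blanks were taken as no value. Filtering on 1 FPKM in any condition left 6524 genes. Differences of log2(FPKM + 1) were taken in 9 comparisons with python 3.11.15, pandas 2.3.3 and numpy 2.4.6, with code tested on simulated data. With 1 value per condition there was no test, and counts past 2-fold are given beside the share of all genes. Centring divides a column by its median gene and multiplies it by the wild-type log median. Alternatives were pseudocounts of 0.1, 10 and none, no filter, and centring.

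The genes, partner lists, markers and comparisons were chosen with earlier results of these data known. The text gives the 3 highest and 3 lowest genes of each comparison, the catalytic genes in every condition, and the highest and lowest partners in most comparisons. Ratios were computed for 16 pairs, of which 9 are given in every condition. ESA1 to EPL1 and INO80 to SWR1 are given in log and Q cells only. Planned comparisons of protein identity and promoter motifs were not made, since the sequences they need were not used here.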

Additional observations from a re-analysis of the deposited data

Results flagged for a closer look

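The difference between mutant and wild type had opposite signs in log and Q cells, by 0.5 or more on the log2 scale in each, for HAT1, SWI1 and RSC30. HAT1 was at -0.76 in log and 3.08 in Q cells, SWI1 at -0.67 and 1.98, and RSC30 at -0.63 and 2.17. Of 6395 genes 7.15% met the same rule, and the 3 of 42 here are near that share. After centring, SWI1 (-1.04 and -1.12) and RSC30 (-1.01 and -1.05) were lower in the mutant at both harvests, and HAT1 was at -1.15 and 0.89. The differences between harvests were not tested.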

How the results depend on the processing

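No paired analysis was possible because the table has 1 value per condition, and leaving out an isolate could not be run for the same reason. With a pseudocount of 0.1, without the filter, and without a pseudocount (added after the data were seen), none of the 18 counts past 2-fold moved by over 1.5 times. With a pseudocount of 10 the genes down by 2-fold or more were 16 (wild-type DS against log), 18 (wild-type Q against DS), 7 (mutant DS against log), 20 (mutant Q against log) and 0 (mutant Q against DS), and those up in the mutant 1 at DS and 27 in Q. Centring gave 8 down for wild-type DS against log, 10 down and 11 up for Q against log, and 3 down and 17 up for Q against DS. For mutant against wild type it gave 3 down in log, 1 down and 1 up at DS, and 14 down and 5 up in Q. Within the mutant it gave 1 down for DS against log, 0 down and 1 up for Q against log, and 0 down and 1 up for Q against DS. Centring turned the sign of 6 of 9 medians: wild-type Q against log (0.28), Q against DS (0.44), mutant against wild type in log (-0.12), DS (-0.097) and Q (-0.040), and mutant Q against DS (0.40). It turned the sign of 21 of the 54 highest and lowest gene changes. The 9 of these past 2-fold on the per-cell scale were ESA1 (2.63), INO80 (2.19) and EPL1 (1.96) for wild-type Q against log, INO80 (2.31), SAS3 (2.205) and RSC9 (1.99) for Q against DS, and INO80 (-2.35), ESA1 (-2.04) and SAS3 (-1.42) for mutant against wild type in Q. Centring removes the per-cell scale by construction. Read depth is unknown, which limits most the 18 genes below 1 FPKM in wild-type Q cells.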
